A study of Homo sapiens with 6 samples.

Results

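The genes that copy DNA were compared in LN229, a line of human glioblastoma cells, between libraries labelled TRIM25 knockdown and libraries labelled WT. The set held 56 gene symbols out of 28265 in the count tables, chosen by name for their part in DNA replication and S phase. The choice was made with earlier results of these data known. All 56 passed the filter on low counts that left 14315 genes. Total RNA had been sequenced in 6 libraries, 3 in each group. The knockdown group was made with a short hairpin RNA against TRIM25, an E3 ubiquitin ligase, according to the series design. The WT group carries the letters NC in its sample titles, which the labels do not explain, so it is unknown here whether these cells carried a control hairpin. Both groups were grown in DMEM with fetal bovine serum and antibiotics. The labels do not say whether the knockdown cells were 1 clone or a pool, nor whether replicates were grown separately, and the p-values can speak only of the variation among these 6 libraries, which may be technical.

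TRIM25 mRNA went against the label. It stood at 80.3, 79.98 and 88.5 CPM (counts scaled to a common library size, with sizes scaled by edgeR's TMM factors) in the libraries labelled knockdown, against 35.3, 35.8 and 35.6 CPM in WT. Its log2 fold change was 1.22 ± 0.07 (SE; adjusted p = 3.23e-09 by edgeR's quasi-likelihood test, Benjamini-Hochberg method). The groups are therefore named by their labels, and no direction given here can be read as an effect of losing TRIM25 mRNA. Total counts ran from 11349865 to 16404725 in the libraries labelled knockdown and from 13763400 to 15868470 in WT. Of 9 astroglial and glioma markers 6 reached 1 TPM (the authors' length-scaled unit), while GFAP, AQP4 and SOX9 stayed below 1 TPM. Their mean TPM differed between the libraries labelled knockdown and WT. SOX2 was at 125.2 and 191.3 TPM, S100B at 1045.1 and 1271.6, OLIG2 at 5.40 and 8.43, and VIM at 4204.2 and 4464.4. NES was at 377.3 and 302.7 TPM and CD44 at 268.8 and 255.6, the labelled knockdown first in each pair. Markers of other cell types also reached 1 TPM: all 3 fibroblast markers, the neuronal SYT1 and SNAP25 of 3, and the epithelial KRT8 of 3. Mean LUM was 46.3 TPM in the libraries labelled knockdown and 46.2 TPM in WT. DCN was at 3.35 TPM in the libraries labelled knockdown and 7.24 TPM in WT, and COL1A1 at 1.71 and 2.49 TPM. None of the 3 endothelial markers did. Of the 4 immune markers only CD68 did, and the summed immune markers ran from 98.5 to 116.2 TPM in the libraries labelled knockdown and from 70.7 to 75.3 TPM in WT. The part of these differences in the results was not tested.

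DNA replication starts at origins, which the origin recognition complex marks and CDC6 and CDT1 load with the MCM2 to MCM7 helicase before S phase. The kinase CDC7 with DBF4, together with CDC45, GINS and MCM10, then turns the loaded helicase into an active fork, where primase, the polymerases alpha, delta and epsilon, the PCNA clamp and its RFC loader make DNA from nucleotides that ribonucleotide reductase and thymidylate enzymes supply. Most of these genes are classical targets of the E2F transcription factors, and dividing glioblastoma cells express them strongly.

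In the libraries labelled knockdown 12 of the 56 replication genes rose and 2 fell, while 42 did not pass the test. The genes that rose were ORC6, MCM2, MCM10, GINS1, POLD3, POLE, POLE2, RFC1, DNMT1, E2F7, DTL and TIMELESS, and those that fell were RRM2 and TK1, which both supply nucleotides. A gene was counted as called at an edgeR adjusted p under 0.05 over all 14315 genes. The risen genes were 21.4% of the set, against 12.2% of all tested genes called higher, and the fallen ones 3.57%, against 11.0% called lower. In either direction 14 of 56 were called, a share near the 23.3% of all tested genes. The differences were small: called members ran from -0.31 to 0.44 on the log2 scale, and the median over the 56 was 0.06, against -0.0038 for all tested genes. Fitted values lay above 0 for 37 members and below 0 for 19. The count of risen members was 3 without WT replicate 2, 6 without WT replicate 3, 7 without WT replicate 1 and 6 without replicate 2 of the libraries labelled knockdown. It was 8 without labelled knockdown replicate 3 and 14 without replicate 1, and the count of fallen members was 1 without labelled knockdown replicate 2 and 3 without replicate 1. DESeq2 did not call ORC6 (adjusted p = 0.0596), MCM10 (0.0712), POLE2 (0.0898) or E2F7 (0.0623), and upper-quartile scaling in edgeR did not call MCM10 (0.0542) or E2F7 (0.0538).

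**Figure D1:**
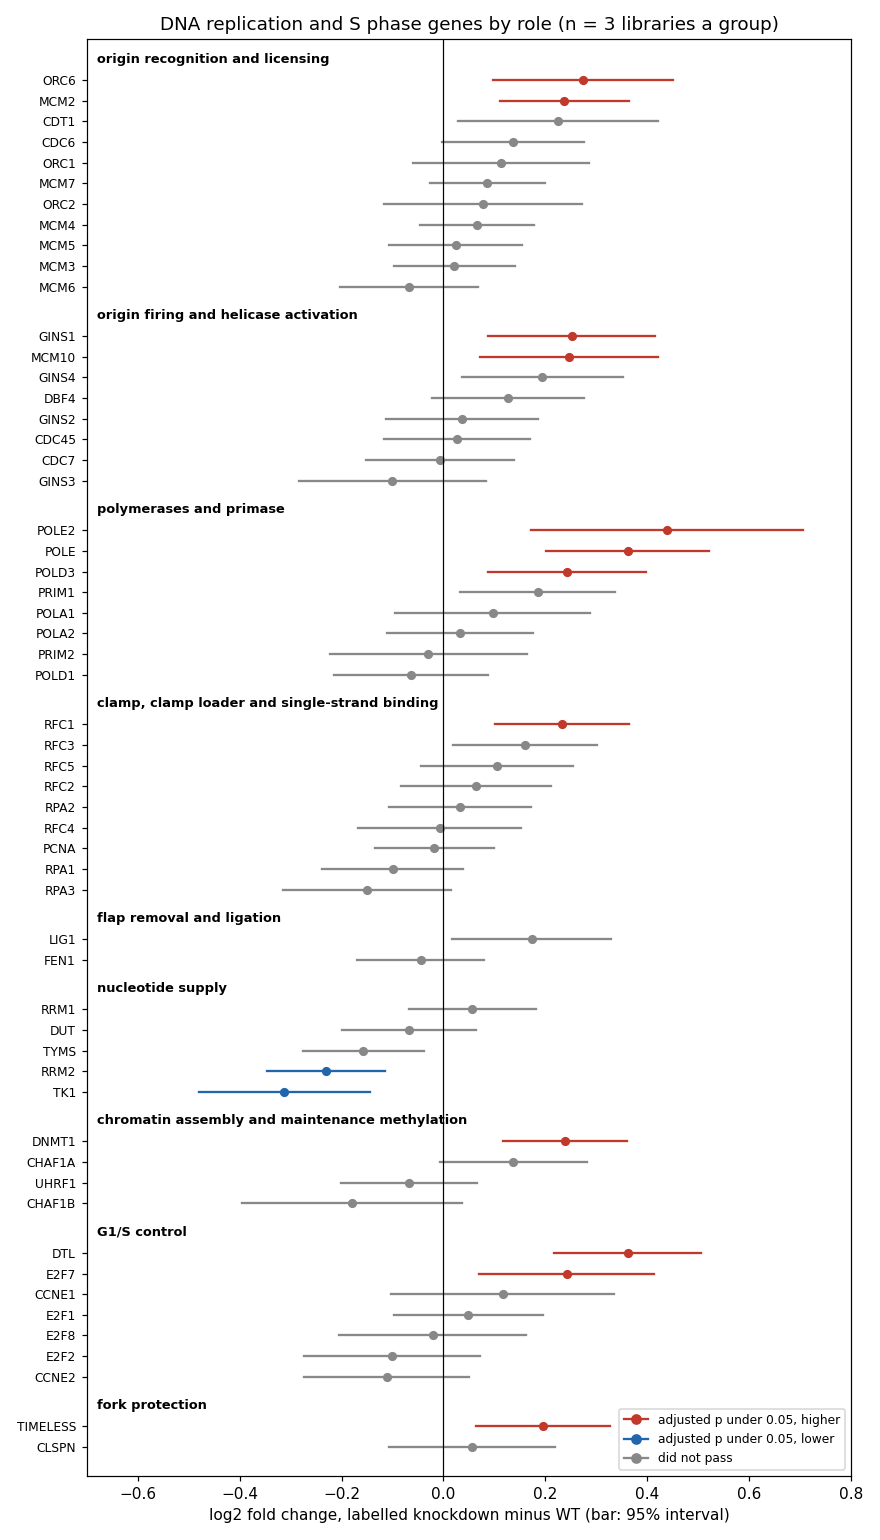
Log2 fold change (labelled knockdown minus WT, horizontal axis) of the 56 genes, grouped by role, with points for the estimate and bars for the 95% CI from 3 libraries a group. Red points (12 genes) rose, blue points (2 genes, RRM2 and TK1) fell, and grey points (42 genes) did not pass an edgeR adjusted p of 0.05.

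The promoters of the set share letters that the choice of genes did not use. RefSeq promoter windows of 300 bases (250 before and 50 after the annotated start, GRCh38.p14) were found for 48 of the 56 members. An E2F-type motif, written as TTTGGCGC, TTTCCCGC, TTTCGCGC or TTTGCCGC on either strand, stood in 23 of these 48 windows (47.9%), against 3.33% of 27305 windows of all genes and 5.36% of the 10989 windows of tested genes. It stood in 6 of 11 windows of members that rose, in 17 of 35 of members that did not pass and in 0 of 2 of those that fell. The motif CCAAT, also searched on both strands, stood in 27 of the 48 windows (56.2%), against 36.8% of windows of tested genes and 35.7% of all windows. The cell cycle motif TTTGAA stood in 2 of 48 (4.17%), against 9.84% of windows of tested genes and 15.4% of all windows. By role, the E2F-type letters stood in 6 of 9 licensing windows, 4 of 7 polymerase and primase windows and 1 of 5 nucleotide supply windows, that of TYMS. A match is a description of letters and not of a bound site, and a window without one says only that these letters are not in it.

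Windows of 2 genes that rose and of both genes that fell are shown to compare their letters, each with the 250 bases before the start and the first 30 after it, 5′ to 3′ on the gene's strand, with E2F-type and CCAAT letters in capitals. They lie at chr1:212035498-212035777 (plus strand) for DTL, chr3:127598161-127598440 (plus strand) for MCM2, chr2:10122489-10122768 (plus strand) for RRM2 and chr17:78187175-78187454 (minus strand) for TK1, in GRCh38.p14.
DTL: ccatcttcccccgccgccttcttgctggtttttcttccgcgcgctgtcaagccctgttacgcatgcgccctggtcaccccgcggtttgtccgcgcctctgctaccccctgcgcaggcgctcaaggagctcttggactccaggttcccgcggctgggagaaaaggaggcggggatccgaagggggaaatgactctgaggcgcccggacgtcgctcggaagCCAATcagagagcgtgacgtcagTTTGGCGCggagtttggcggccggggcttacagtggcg
MCM2: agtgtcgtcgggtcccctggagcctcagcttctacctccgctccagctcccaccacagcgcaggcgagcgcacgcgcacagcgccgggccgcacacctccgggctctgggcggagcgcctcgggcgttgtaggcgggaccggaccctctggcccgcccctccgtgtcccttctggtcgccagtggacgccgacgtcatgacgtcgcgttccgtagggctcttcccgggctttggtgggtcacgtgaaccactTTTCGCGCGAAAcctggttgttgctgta
RRM2: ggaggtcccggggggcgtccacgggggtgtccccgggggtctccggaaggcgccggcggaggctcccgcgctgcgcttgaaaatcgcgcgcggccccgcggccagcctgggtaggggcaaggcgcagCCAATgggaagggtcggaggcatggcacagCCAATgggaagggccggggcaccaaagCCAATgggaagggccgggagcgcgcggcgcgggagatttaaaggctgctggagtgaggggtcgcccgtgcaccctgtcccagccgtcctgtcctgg
TK1: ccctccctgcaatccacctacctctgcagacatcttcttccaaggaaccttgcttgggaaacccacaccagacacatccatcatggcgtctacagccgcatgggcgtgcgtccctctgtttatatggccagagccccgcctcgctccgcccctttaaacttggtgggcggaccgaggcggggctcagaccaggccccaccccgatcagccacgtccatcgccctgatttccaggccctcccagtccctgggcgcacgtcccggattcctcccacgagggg
In MCM2 the E2F-type forms on both strands overlap in 1 run just after the start, and in DTL the form ends just before the start, downstream of a CCAAT. RRM2 has CCAAT 3 times and none of the 4 E2F-type forms, and the TK1 window has neither motif. The windows of ORC6, MCM10, RFC1, E2F7 and TIMELESS, which also rose, hold none of the 4 E2F-type forms either. DTL and MCM2 are thus from the 6 of 11 risen windows with such a form, beside 17 of 35 windows of members that did not pass.

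Among the 11 origin recognition and licensing genes 2 rose (18.2%) and none fell, beside 12.2% and 11.0% of all tested genes. MCM2, a subunit of the replicative helicase, had 152.5, 148.2 and 143.1 CPM in the libraries labelled knockdown, against 129.2, 119.5 and 127.6 CPM in WT. The groups did not overlap (log2 fold change 0.24 ± 0.06, SE; adjusted p = 0.00876 by edgeR), but the call was lost without WT replicate 2 (adjusted p = 0.0808). In GENCODE v29, MCM2 shares 1113 bp of exon with AC023593.1 on the opposite strand, and the strand setting of the counting is not given in the sources used here. ORC6, the smallest subunit of the origin recognition complex, had 26.9, 30.05 and 28.5 CPM in the libraries labelled knockdown, against 21.8, 23.8 and 25.1 CPM in WT. All 3 values labelled knockdown were above the highest of WT (log2 fold change 0.27 ± 0.08, SE; adjusted p = 0.0254 by edgeR). That call was lost without labelled knockdown replicate 2 (adjusted p = 0.122) or WT replicate 1 (0.101) or 2 (0.0810).

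The other helicase subunits did not pass, and their values set a limit on any change. MCM7, the most abundant of them, had 297.4, 293.2 and 278.8 CPM in the libraries labelled knockdown and 269.7, 269.6 and 279.4 CPM in WT, with 1 WT library above the lowest of the others (log2 fold change 0.09, 95% confidence interval (CI) -0.03 to 0.20). MCM4 had a log2 fold change of 0.07 (95% CI -0.05 to 0.18), MCM3 of 0.02 (-0.10 to 0.14), MCM5 of 0.02 (-0.11 to 0.15) and MCM6 of -0.07 (-0.20 to 0.07). The loading factor CDT1 had 58.6, 48.2 and 46.2 CPM in the libraries labelled knockdown, against 42.3, 39.6 and 48.4 CPM in WT. Its groups overlapped and it missed the threshold (log2 fold change 0.22 ± 0.09, SE; adjusted p = 0.0898 by edgeR). CDC6, the ATPase that loads the helicase with CDT1, had a log2 fold change of 0.14 (95% CI -0.0033 to 0.28), and the origin recognition subunits ORC1 and ORC2 of 0.11 (-0.06 to 0.28) and 0.08 (-0.12 to 0.27).

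The length-scaled TPM allows levels to be compared between the helicase subunits. MCM7 averaged 266.9 ± 4.11 TPM in the libraries labelled knockdown and 242.9 ± 4.06 TPM in WT (SD, n = 3 each), and MCM4 174.2 ± 5.78 TPM in the libraries labelled knockdown and 160.7 ± 4.31 TPM in WT. MCM3 and MCM5, with 130.6 ± 6.34 and 128.3 ± 3.60 TPM in the libraries labelled knockdown and 124.3 ± 3.69 and 121.9 ± 6.30 TPM in WT, did not differ beyond their spread. MCM2 followed with 122.8 ± 0.896 TPM in the libraries labelled knockdown and 100.6 ± 5.51 TPM in WT. MCM6 was the lowest of the 6, with 81.4 ± 6.92 TPM in the libraries labelled knockdown and 82.4 ± 4.03 TPM in WT.

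**Figure D2:**
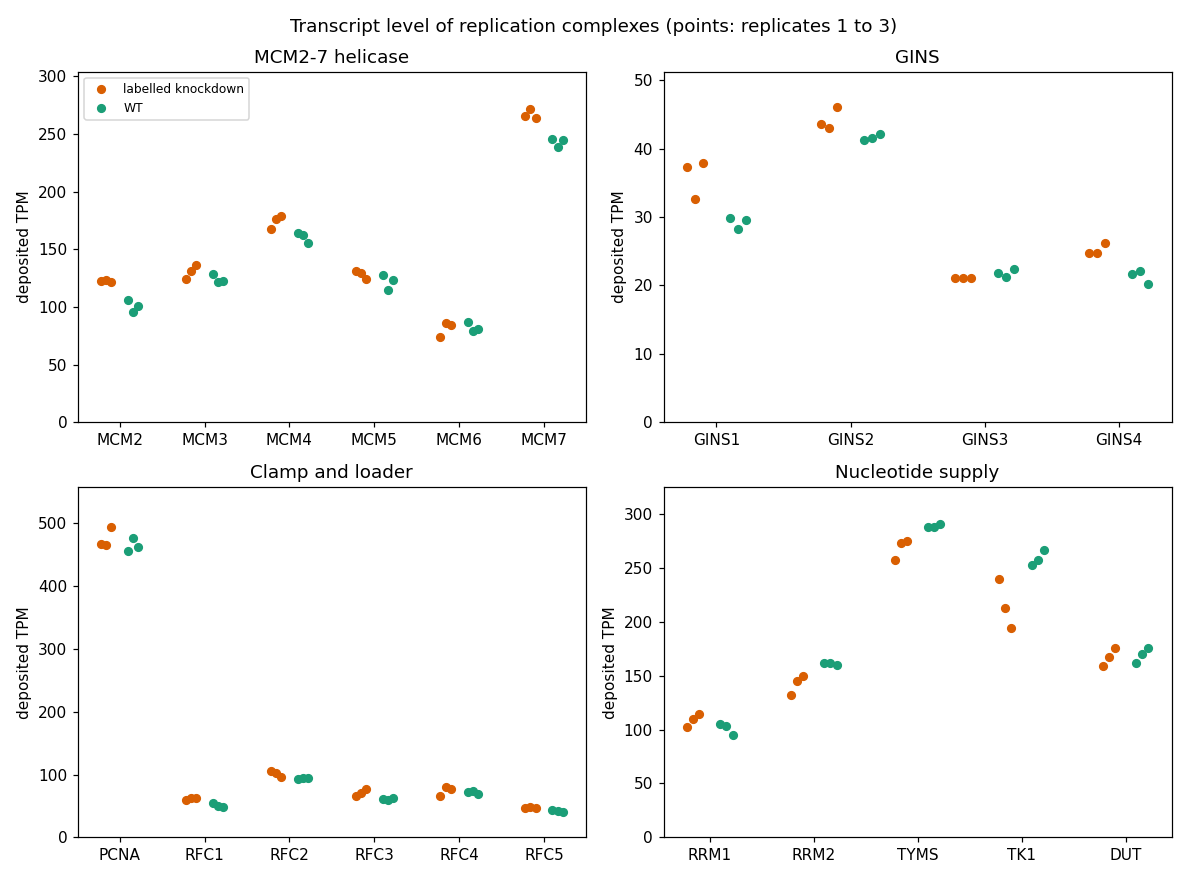
Deposited TPM (vertical axes, from 0) of the subunits of the MCM2 to MCM7 helicase, of GINS, of the clamp and its loader, and of the nucleotide supply genes in each library, with the libraries labelled knockdown in orange on the left and WT in green on the right. PCNA stands above the other genes of its panel, MCM7 is the highest and MCM6 the lowest helicase subunit, and RRM2 and TK1 are lower in all 3 libraries labelled knockdown.

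Of the 8 origin firing and helicase activation genes 2 rose and none fell, beside 12.2% and 11.0% of all tested genes. GINS1 had 46.1, 38.9 and 44.4 CPM in the libraries labelled knockdown, against 36.2, 35.3 and 37.3 CPM in WT, with no overlap (log2 fold change 0.25 ± 0.08, SE; adjusted p = 0.0268 by edgeR). Its call was lost without labelled knockdown replicate 3 or any of the 3 WT libraries (adjusted p from 0.0582 to 0.118). MCM10, which joins the helicase as it is activated, had 40.0, 37.9 and 47.0 CPM in the libraries labelled knockdown, against 34.7, 35.8 and 35.4 CPM in WT. Replicate 3 was the highest, and the call (log2 fold change 0.25 ± 0.08, SE; adjusted p = 0.0401 by edgeR) was lost without it (0.236) or without any WT library (0.0953 to 0.109); without it the log2 fold change was 0.14.

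Among the other GINS subunits GINS4 had 33.6, 32.3 and 33.7 CPM in the libraries labelled knockdown and 28.9, 30.4 and 27.96 CPM in WT, without overlap, and missed the threshold (1159 bp of its exons lie opposite AC009630.2; log2 fold change 0.19 ± 0.08, SE; adjusted p = 0.0712 by edgeR). GINS2 and GINS3 had log2 fold changes of 0.04 (95% CI -0.11 to 0.19) and -0.10 (-0.28 to 0.08). CDC45, the helicase cofactor, and the kinase CDC7 lay close to 0, at 0.03 (-0.12 to 0.17) and -0.01 (-0.15 to 0.14). DBF4, the activating subunit of CDC7, had a log2 fold change of 0.13 (-0.02 to 0.28).

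Of the 8 polymerase and primase genes 3 rose and none fell, beside 12.2% and 11.0% of all tested genes; without labelled knockdown replicate 2 or WT replicate 2 only POLE of these 3 was called. POLE, the catalytic subunit of the leading strand polymerase epsilon, had 72.9, 66.3 and 70.6 CPM in the libraries labelled knockdown, against 60.4, 52.0 and 50.8 CPM in WT. The groups did not overlap, and the call (log2 fold change 0.36 ± 0.08, SE; adjusted p = 0.00245 by edgeR) held without any single library (adjusted p from 0.000639 to 0.0271). POLE2, its accessory subunit and the least abundant member in CPM, had 7.91, 7.87 and 7.36 CPM in the libraries labelled knockdown, against 5.79, 5.29 and 5.88 CPM in WT. This was the largest rise of the set, 1.36-fold (log2 fold change 0.44 ± 0.13, SE; adjusted p = 0.0190 by edgeR), and it was lost without labelled knockdown replicate 2 (adjusted p = 0.0674) or WT replicate 2 (0.0843). POLD3, an accessory subunit of the lagging strand polymerase delta, had 44.5, 49.8 and 49.8 CPM in the libraries labelled knockdown, against 40.8, 42.3 and 38.9 CPM in WT. Its call (log2 fold change 0.24 ± 0.07, SE; adjusted p = 0.0246 by edgeR) was kept only without labelled knockdown replicate 1, and lost without any of the other 5 libraries (adjusted p from 0.0516 to 0.119).

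The catalytic subunit of polymerase delta, POLD1, had 49.4, 42.9 and 46.6 CPM in the libraries labelled knockdown and 47.9, 49.4 and 47.9 CPM in WT, with overlap (log2 fold change -0.06, 95% CI -0.21 to 0.09). The primase subunit PRIM1 had 39.2, 36.9 and 39.0 CPM in the libraries labelled knockdown and 33.1, 34.6 and 33.8 CPM in WT. These did not overlap but missed the threshold (log2 fold change 0.18 ± 0.07, SE; adjusted p = 0.0722 by edgeR). The other primase subunit PRIM2 and the polymerase alpha subunits POLA1 and POLA2 had log2 fold changes of -0.03, 0.10 and 0.03 and did not pass. In GENCODE v29 PRIM1, POLD1 and POLA2 share 362, 426 and 2012 bp of exon with other genes on the same strand.

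Of the 9 clamp, clamp loader and single-strand binding genes only RFC1 passed (11.1%), beside 23.3% of all tested genes in either direction. RFC1, the large subunit of the loader, had 104.2, 105.1 and 105.1 CPM in the libraries labelled knockdown, against 94.3, 87.5 and 85.7 CPM in WT. Its rise (log2 fold change 0.23 ± 0.06, SE; adjusted p = 0.0129 by edgeR) was lost without labelled knockdown replicate 2 (adjusted p = 0.0627) or WT replicate 2 (0.0792) or 3 (0.0822). The small loader subunits RFC2, RFC3, RFC4 and RFC5 had log2 fold changes of 0.06, 0.16, -0.01 and 0.10. PCNA, the sliding clamp and the most abundant member on the TPM scale, had 234.7, 226.3 and 234.8 CPM in the libraries labelled knockdown and 224.8, 242.1 and 237.8 CPM in WT. The groups overlapped, and the 95% CI of its log2 fold change ran from -0.13 to 0.10. Of the 3 named pseudogenes of PCNA, PCNAP1 is in the count tables. The single-strand binding genes RPA1, RPA2 and RPA3 had log2 fold changes of -0.10, 0.03 and -0.15. Of the genes that join Okazaki fragments, the flap nuclease FEN1 had a log2 fold change of -0.04 (95% CI -0.17 to 0.08) and the ligase LIG1 of 0.17 (0.02 to 0.33; edgeR adjusted p = 0.102).

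Of the 5 nucleotide supply genes RRM2 and TK1 fell and none rose, beside 11.0% of all tested genes called lower and 12.2% called higher. The median log2 fold change of the 5 was -0.16, and -0.043 with an offset for gene length and GC content. RRM2, the small subunit that limits ribonucleotide reductase in S phase, had 215.5, 227.9 and 231.7 CPM in the libraries labelled knockdown, against 258.8, 266.4 and 267.2 CPM in WT. All 3 libraries labelled knockdown lay below the lowest of WT, a fall of 0.23 ± 0.05 on the log2 scale (SE; adjusted p = 0.00596 by edgeR) that held without any single library (adjusted p from 0.00544 to 0.0449). In GENCODE v29 RRM2 shares 1077 bp of exon with AC007240.1 on the same strand, so reads could be assigned to more than 1 locus. It also has 3 named pseudogenes, none of which is in the count tables. TK1, which salvages thymidine, had 146.2, 125.4 and 111.8 CPM in the libraries labelled knockdown, against 150.9, 158.3 and 166.1 CPM in WT. The first of these came close to the lowest WT library, and the call (log2 fold change -0.31 ± 0.08, SE; adjusted p = 0.00928 by edgeR) was lost without labelled knockdown replicate 2 (adjusted p = 0.0532).

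TYMS, which makes thymidylate, had 149.4, 152.6 and 150.9 CPM in the libraries labelled knockdown, against 163.6, 169.1 and 172.4 CPM in WT. The groups did not overlap, yet the gene missed the threshold (log2 fold change -0.16 ± 0.06, SE; adjusted p = 0.0517 by edgeR). It shares 967 bp of exon with ENOSF1 on the opposite strand and has 2 named pseudogenes outside the count tables. RRM1, the large reductase subunit, had 131.9, 136.9 and 139.1 CPM in the libraries labelled knockdown and 132.9, 134.1 and 125.3 CPM in WT, with a 95% CI of its log2 fold change from -0.07 to 0.18. The dUTPase gene DUT, with 8 named pseudogenes outside the count tables, had a log2 fold change of -0.07 (95% CI -0.20 to 0.06). Summed over the 5 genes, the level was 775.3, 777.1 and 771.9 CPM in the libraries labelled knockdown, against 838.4, 871.1 and 880.3 CPM in WT. The sum over the 11 licensing genes was 1330.0, 1334.1 and 1307.3 CPM in the libraries labelled knockdown, against 1258.7, 1234.6 and 1260.4 CPM in WT. The 8 polymerase and primase genes summed to 318.8, 311.5 and 320.8 CPM in the libraries labelled knockdown, against 298.2, 285.7 and 276.2 CPM in WT. Non-overlap was common among such sums: those of 8 of the 9 roles did not overlap between the groups, 7 higher in the libraries labelled knockdown and nucleotide supply lower, and only the sum for flap removal and ligation overlapped. Sums over sets of other genes were not computed, so it is unknown how often such sums do not overlap. The sums were not adjusted for gene length or GC content. Over all 56 genes the sum was 4548.0, 4522.1 and 4537.5 CPM in the libraries labelled knockdown, against 4385.2, 4409.5 and 4406.1 CPM in WT. In bulk RNA a changed share of cells in S phase and a changed RNA level per cell cannot be told apart, for the higher sums or for the lower one.

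The genes that rebuild and methylate chromatin behind the fork gave 1 rise among 4 and no fall, beside 12.2% and 11.0% of all tested genes. DNMT1, the maintenance DNA methyltransferase, had 286.4, 272.3 and 285.7 CPM in the libraries labelled knockdown, against 252.0, 238.2 and 225.3 CPM in WT (log2 fold change 0.24 ± 0.06, SE; adjusted p = 0.00651 by edgeR). There was no overlap, but the call was lost without WT replicate 3 (adjusted p = 0.0588). UHRF1, which brings DNMT1 to newly copied DNA, had 76.0, 70.5 and 71.9 CPM in the libraries labelled knockdown and 76.9, 77.0 and 75.04 CPM in WT, with a 95% CI of its log2 fold change from -0.20 to 0.07. The chromatin assembly subunits CHAF1A and CHAF1B had log2 fold changes of 0.14 (-0.01 to 0.28) and -0.18 (-0.40 to 0.04).

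Among the 7 genes of G1/S control DTL and E2F7 rose (28.6%) and none fell, beside 12.2% and 11.0% of all tested genes. DTL, the substrate receptor through which a ubiquitin ligase destroys CDT1 in S phase, had 71.8, 74.3 and 78.2 CPM in the libraries labelled knockdown, against 61.3, 58.5 and 55.0 CPM in WT. It had the lowest p of the set (log2 fold change 0.36 ± 0.07, SE; adjusted p = 0.00109 by edgeR) and held without any single library (adjusted p from 3.37e-05 to 0.0112). E2F7, a repressor of the family, had 44.6, 51.9 and 56.2 CPM in the libraries labelled knockdown, against 42.5, 44.5 and 42.6 CPM in WT. The first value nearly touched the highest of WT, and the call (log2 fold change 0.24 ± 0.08, SE; adjusted p = 0.0399 by edgeR) was lost without any library but labelled knockdown replicate 1 (adjusted p from 0.0931 to 0.190). Without labelled knockdown replicate 3 its log2 fold change was 0.16.

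The activators E2F1 and E2F2 had log2 fold changes of 0.05 (95% CI -0.10 to 0.20) and -0.10 (-0.27 to 0.07), and the repressor E2F8 of -0.02 (-0.20 to 0.16). The cyclin genes CCNE1 and CCNE2, partners of CDK2 at S phase entry, had log2 fold changes of 0.12 (-0.10 to 0.34) and -0.11 (-0.27 to 0.05). CCNE2 shares 1629 bp of exon with INTS8 on the opposite strand. Of the fork protection genes TIMELESS had 91.6, 97.2 and 95.9 CPM in the libraries labelled knockdown, against 86.0, 82.3 and 80.5 CPM in WT. Its rise (log2 fold change 0.20 ± 0.06, SE; adjusted p = 0.0321 by edgeR) was lost without labelled knockdown replicate 2 or 3 or WT replicate 2 or 3 (adjusted p from 0.0665 to 0.145). CLSPN, the checkpoint mediator claspin, had 58.1, 52.2 and 61.5 CPM in the libraries labelled knockdown and 55.2, 59.4 and 51.3 CPM in WT, with overlap.

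**Figure D3:**
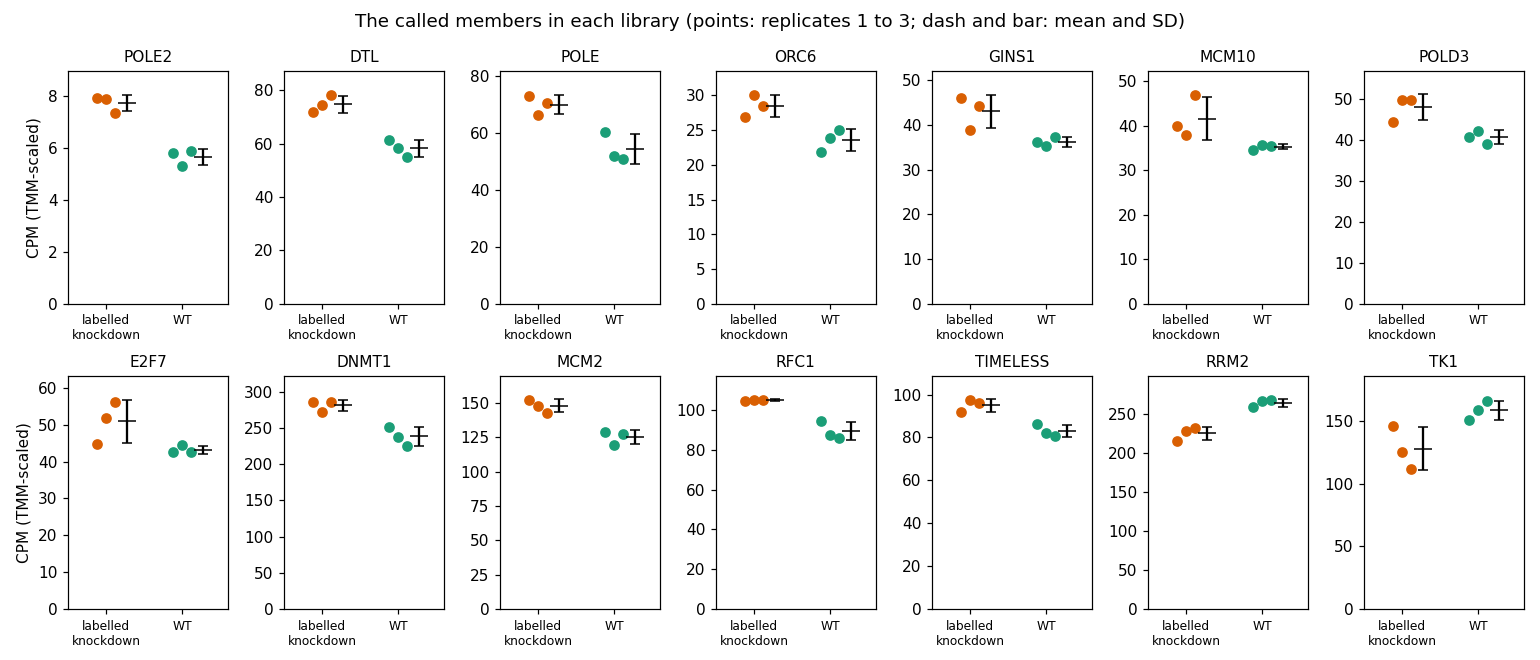
CPM (vertical axes, from 0, TMM-scaled) of the 14 called genes in each library, with the libraries labelled knockdown on the left and WT on the right; dashes and bars are the mean and SD of 3 libraries. No gene shows overlap between the groups, 12 are higher and 2 (RRM2 and TK1) lower in the libraries labelled knockdown, and TK1, E2F7 and MCM10 spread most relative to their mean among the libraries labelled knockdown.

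Values of the 2 groups did not overlap for 27 of the 56 genes (48.2%), of which 20 were higher and 7 lower, against 37.3% of all tested genes, 18.3% higher and 19.0% lower. All 14 called members are among the 27. The remaining 13 were CDC6, MCM4, GINS4, PRIM1, RFC3, RFC5, LIG1 and CHAF1A on the higher side and GINS3, RPA1, TYMS, CHAF1B and E2F2 on the lower.

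Ratios within a library do not depend on how libraries are scaled, so each subunit was also set against the mean log2 count of its partners. POLE was set against POLD1 as well, which is the catalytic subunit of another polymerase and not a partner. The ratios were not adjusted for gene length or GC content. These 31 ratios were chosen after the gene values were seen. With 3 libraries against 3 the smallest p an exact two-sided permutation test can give is 0.1, and each ratio without overlap between the groups had that p (Benjamini-Hochberg adjusted p = 0.207). The log2 ratio of POLE to POLD1 was 0.60 ± 0.03 in the libraries labelled knockdown, against 0.16 ± 0.15 in WT (SD, n = 3 each), a difference of 0.43. POLE is 7823 bp and POLD1 3545 bp long. With the length and GC offset their log2 fold changes were 0.34 and 0.04. The log2 ratio of RRM1 to RRM2 was -0.73 ± 0.02 in the libraries labelled knockdown, against -1.01 ± 0.07 in WT, a difference of 0.29. POLD1 to POLD3 gave -0.05 ± 0.19 in the libraries labelled knockdown and 0.25 ± 0.04 in WT, and CHAF1A to CHAF1B 2.08 ± 0.10 in the libraries labelled knockdown and 1.78 ± 0.16 in WT. With the length and GC offset the log2 fold changes of POLD1 and POLD3 were 0.04 and 0.22. Those of CHAF1A and CHAF1B were 0.21 and -0.19 with it. Within the helicase, MCM2 against its 5 partners differed by 0.21 and MCM6 by -0.16. The groups did not overlap in 15 of the 31 ratios, the ones named so far among them, and overlapped in 16. Ratios within 1 complex reuse the same counts and are not independent. The share of ratios among other genes that do not overlap was not computed. POLE to POLE2 was among those that overlapped, at 3.18 ± 0.095 in the libraries labelled knockdown and 3.26 ± 0.14 in WT, as were MCM3, MCM4, MCM5 and MCM7 against their partners. No ratio could pass a threshold of 0.05 at this sample number.

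Fold changes ran with gene length (the length implied by the deposited FPKM and counts). Spearman's rho of log2 fold change with length was 0.22 across the 56 genes and 0.30 across the 14315 tested genes, which share the same 6 libraries and are not independent replicates. Relative to its group mean, rho with length over all genes was -0.38, 0.07 and 0.38 in labelled knockdown replicates 1, 2 and 3, and 0.41, -0.12 and -0.36 in WT replicates 1, 2 and 3. Of the 16 members of at least 4500 bp 7 rose (43.8%) and 1 fell, against 22.1% higher and 7.58% lower among all genes of that length. Of the 15 members under 2500 bp 2 rose (13.3%) and 1 fell, against 4.20% higher and 15.0% lower. POLE is 7823 bp long and DTL 4604 bp, whereas ORC6 and POLE2, which also rose, are 1674 and 2010 bp long.

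With library offsets fitted on length and GC content, 22 of the 56 members rose (39.3%) and 2 fell, against 18.0% higher, 14.3% lower and 32.4% in either direction of all tested genes. All 14 called members kept their call and direction. The 10 added were CDT1, MCM7, GINS4, PRIM1, RFC2, RFC3, RFC5, LIG1, CHAF1A and E2F1. RRM2 stayed at -0.24 (edgeR adjusted p = 2.95e-05) and TK1 at -0.19 (0.000745), while TYMS moved to -0.04 (0.440). CDT1 stood at 0.35 (edgeR adjusted p = 4.58e-05) and MCM7 at 0.16 (0.000942). With this offset the median over the set was 0.10, against 0.02 over all tested genes. The part of RNA quality or fragment size in the length trend was not tested.

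**Figure D4:**
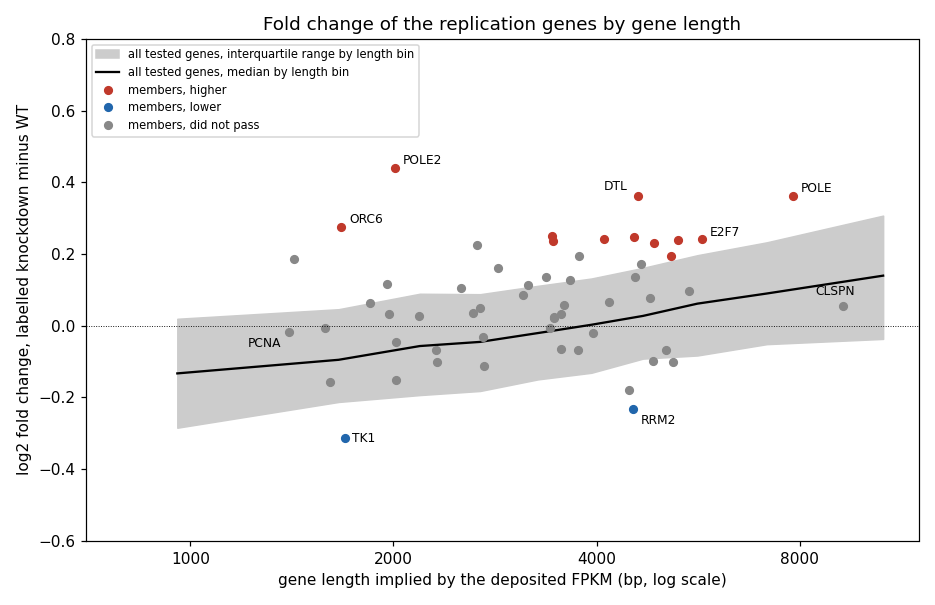
Log2 fold change (vertical axis, labelled knockdown minus WT) of the 56 genes against gene length in bp (horizontal axis, log scale), over the median (black line) and the interquartile range (grey band) of all 14315 tested genes in 10 bins of length. The line climbs with length. Of the called genes, ORC6 and POLE2 lie above the band among short genes, and RRM2 and TK1 below it. Some genes that did not pass also lie outside the band, such as PRIM1 above it and CHAF1B below it.

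Other genes of the pathway were taken from lists compiled from general knowledge, with earlier results of these data known. Of 39 tested replication factors outside the set 8 rose (20.5%) and none fell, beside 12.2% and 11.0% of all tested genes. ATAD5, which unloads PCNA, had 20.7, 24.5 and 24.2 CPM in the libraries labelled knockdown, against 17.9, 17.0 and 16.1 CPM in WT (log2 fold change 0.45 ± 0.09, SE; adjusted p = 0.00221 by edgeR). CASP8AP2 and NPAT, both tied to histone gene expression in S phase, had log2 fold changes of 0.41 ± 0.08 and 0.37 ± 0.11 (SE), and the fork protein gene WDHD1 of 0.40 ± 0.08. The NPAT call was lost without replicate 2 or 3 of either group (adjusted p from 0.0655 to 0.133). Of this list 4 genes were called without labelled knockdown replicate 2 or 3, 5 without WT replicate 3 and 15 without labelled knockdown replicate 1. ATAD5, CASP8AP2, NPAT and WDHD1 are 6869, 6783, 6134 and 6019 bp long, and with the length and GC offset they stood at 0.31, 0.29, 0.26 and 0.29 and kept their calls.

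Of 34 other genes of nucleotide metabolism 5 rose (14.7%) and 7 fell (20.6%), beside 12.2% and 11.0% of all tested genes. The purine synthesis gene GART rose by 0.37 ± 0.06 on the log2 scale, with 123.8, 133.5 and 130.2 CPM in the libraries labelled knockdown, against 104.9, 101.3 and 94.0 CPM in WT (edgeR adjusted p = 0.000541). The kinase genes DGUOK and GUK1, of the deoxyguanosine and guanylate steps, and the one-carbon gene SHMT1 had log2 fold changes of -0.34 ± 0.07, -0.31 ± 0.07 and -0.30 ± 0.07 (SE). With the length and GC offset DGUOK stood at -0.23, GUK1 at -0.16 and SHMT1 at -0.20, and all 3 were still called. The calls of these 4 genes held without any single library, while the list's 12 calls became 7 without labelled knockdown replicate 2, 6 without WT replicate 2 and 11 without WT replicate 1.

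Among 35 other G1/S control genes 8 rose (22.9%) and 3 fell (8.57%), beside the same 12.2% and 11.0%. CCND1, which encodes cyclin D1, had 412.6, 427.0 and 435.5 CPM in the libraries labelled knockdown, against 303.4, 290.0 and 289.3 CPM in WT (log2 fold change 0.53 ± 0.05, SE; adjusted p = 2.10e-06 by edgeR). The E2F partner RBL1 and the MuvB subunit LIN9 had log2 fold changes of 0.36 ± 0.08 and 0.41 ± 0.09, and the CDK4 and CDK6 inhibitor CDKN2D of -0.41 ± 0.11 (SE). The CDKN2D call was lost without labelled knockdown replicate 2 (adjusted p = 0.0815) or WT replicate 2 (0.0545) or 3 (0.0774), and with the length and GC offset (log2 fold change -0.26, adjusted p = 0.0842). Of 21 mitotic genes 3 rose (14.3%) and 5 fell (23.8%), again beside 12.2% and 11.0%, and their median log2 fold change was -0.03. The long genes CENPF and ASPM were at 0.53 ± 0.08 and 0.54 ± 0.08, and BIRC5 and KIF20A, which act in chromosome segregation and cytokinesis, at -0.31 ± 0.06 and -0.27 ± 0.06 (SE). With the length and GC offset CENPF stood at 0.37, ASPM at 0.36, BIRC5 at -0.22 and KIF20A at -0.23. The 11 G1/S calls became 5 without labelled knockdown replicate 2, 6 without replicate 3, 5 without WT replicate 2 and 4 without WT replicate 3. The 8 mitotic calls became 4 without labelled knockdown replicate 2, WT replicate 2 or WT replicate 3.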

How the data were processed

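Total RNA libraries of LN229 cells were prepared with a stranded kit, per the labels' protocols. FastQC, MultiQC, Trim Galore and HISAT2 with build hg19 are named, per the submitters' processing notes; which program counted reads, with which annotation and strand setting, is not given in the sources used here. The deposited tables hold raw counts, FPKM and TPM per gene, as made by the authors. Counts were tested, TPM was used for levels compared between genes, and FPKM only to recover gene lengths.

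Genes were filtered with filterByExpr, scaled by TMM and tested with the quasi-likelihood test of edgeR 4.0.16 in R 4.3.3 over both groups with no covariate, with Benjamini-Hochberg adjustment over 14315 genes and a threshold of 0.05. The scripts were tested on simulated data. GC content came from GENCODE v29 transcripts and was found for 95.3% of tested genes; promoters came from RefSeq, whose build differs from that of the deposited files. Alternatives were RLE and upper-quartile factors, DESeq2, limma-voom, other filters, offsets for length and GC, a replicate block and leaving out each library.

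The members and lists were chosen with earlier results of these data known, so no list is independent evidence. All members are described; outside the set, up to 4 called genes of each list were named, those of largest absolute log2 fold change whose groups did not overlap and whose log2 CPM averaged 2 or more. Total counts of 11349865 to 16404725 per library gave members 73 to 4657 counts.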

Additional observations from a re-analysis of the deposited data

How the results depend on the processing

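All 14 called members kept their direction in all 16 alternatives, and 3 (POLE, RRM2 and DTL) kept their call without any single library. Against 3330 genes called in all, the replicate block gave 1891 and leaving out 1 library 1826 to 4941. Same-numbered libraries did not deviate together (correlations -0.19, 0.01 and -0.22). These values cannot decide whether the numbers mark a shared batch, because the deviations also ran with gene length. The labels do not say what the numbers mark. With the replicate block 3 members were called higher and 2 lower. Against 12 members higher, the count was 22 with the length and GC offset, 20 with that offset and the replicate block, and 3 to 14 without 1 library; against 2 lower it was 1 to 3 without 1 library. The median of the members (0.060) was 0.041 with upper-quartile factors, 0.098 with the length offset, 0.095 with the length and GC offset, 0.096 with that offset and the block, and 0.057 to 0.073 without 1 library. DESeq2 lost the calls of ORC6, MCM10, POLE2 and E2F7, and upper-quartile factors those of MCM10 and E2F7.

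The other replication factors called (8) numbered 5 with DESeq2, 14 with the length offset, 16 with the length and GC offset, 5 with the replicate block, 15 with block and offset, and 4 to 15 without 1 library. For other nucleotide metabolism (12) the block gave 6 and leaving out 1 library 6 to 16. For other G1/S control (11) DESeq2 gave 6, the block 5 and leaving out 1 library 4 to 16, and for mitosis (8) the block gave 5 and leaving out 1 library 4 to 10. The cause was not tested beyond these settings.

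Signs turned for 13 uncalled members, none past the threshold either way. Without the low-count filter the values were CDC7 at 0.0015 and RFC4 at 0.0011. With the length offset they were CDC7 at 0.024, PRIM2 at 0.024, PCNA at 0.091, RFC4 at 0.095, FEN1 at 0.037, DUT at 0.0019 and CLSPN at -0.040. With the length and GC offset they were POLD1 at 0.036, PCNA at 0.034, RFC4 at 0.030, FEN1 at 0.068 and CLSPN at -0.073, and with the block added POLD1 at 0.034, PCNA at 0.034, RFC4 at 0.030, FEN1 at 0.067 and CLSPN at -0.073. Without 1 library the ranges were ORC2 from -0.031 to 0.17, MCM5 from -0.011 to 0.066, CDC7 from -0.040 to 0.031, CDC45 from -0.012 to 0.052 and PRIM2 from -0.089 to 0.0011. They were also PCNA from -0.047 to 0.0046, RFC4 from -0.057 to 0.054, E2F1 from -0.0060 to 0.10, E2F8 from -0.078 to 0.050 and CLSPN from -0.00065 to 0.12.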
